A study of Mus musculus with 20 samples.

Results

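The genes *Ntn1*, *Dcc*, *Neo1*, *Unc5a*, *Unc5b*, *Unc5c* and *Unc5d* were examined for 5-formylcytosine (5fC) in tissues of the mouse embryo. They were chosen by name, as netrin-1 and the members of its 2 classical receptor families, with earlier results of these data known. They are 7 of the 22367 protein-coding genes of the annotation. For each gene the window was the gene body with 2 kb on each side, and the values are the peaks that touch the window and the share of its bases that lie under peaks (covered percent). The study mapped 5fC by chemical pull-down and sequencing of genomic DNA from WT and *Tdg* null embryos at E11.5. For hindbrain there were 4 embryos of each genotype, with 1 WT and 1 *Tdg* null embryo from each of the litters A, O, Q and Z. Heart, liver and carcass (the remainder of the dissected embryo) came from 4 further embryos, 2 WT and 2 *Tdg* null, which are called pair a and pair b, so these 3 tissues shared their embryos. The study's list of replicates gives the 2 pairs separate litter letters, while the embryo codes of both pairs in the labels share 1 letter, so that they may be 1 litter. Tissue and litter therefore cannot be told apart where hindbrain is compared with another tissue. The *Tdg* null embryos were homozygous for a deletion allele. In it, a neomycin resistance cassette stands where the catalytic domain of TDG was encoded. Like the WT embryos, the *Tdg* null embryos came from intercrosses of heterozygotes. The deletion was present in every cell of the embryo. Each library was made from 1 tissue of 1 embryo.

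The *Tdg* null liver of pair b was set aside by the study for poor quality. It held 228 peaks and none in any of the 7 windows. It was left out of all values below, which leaves 9 *Tdg* null and 10 WT libraries. The *Tdg* null libraries used held 101344 to 254319 peaks, which covered 2.68% to 8.09% of the ungapped genome, and the WT libraries held 1563 to 42013 peaks, which covered 0.0349% to 0.939%. The peak files used here give positions only, so the sequencing depth is unknown from them. The *Tdg* window itself held a peak in 8 of 9 *Tdg* null and 3 of 10 WT libraries. The deletion removes only part of that gene, so its peaks do not check the genotype labels.

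In NCBIM37 coordinates the gene bodies were as follows. *Ntn1* (ENSMUSG00000020902.6) lies at chr11:68022866-68214325 on the reverse strand, *Neo1* (ENSMUSG00000032340.6) at chr9:58722486-58884248 on the reverse strand and *Dcc* (ENSMUSG00000060534.9) at chr18:71418392-72510723 on the reverse strand. *Unc5a* (ENSMUSG00000025876.9) lies at chr13:55050772-55107379 on the forward strand and *Unc5b* (ENSMUSG00000020099.6) at chr10:60225358-60294329 on the reverse strand. *Unc5c* (ENSMUSG00000059921.9) lies at chr3:141128528-141497888 on the forward strand and *Unc5d* (ENSMUSG00000063626.4) at chr8:29757189-30329810 on the reverse strand. The windows run from 60608 bp for *Unc5a* to 1096332 bp for *Dcc*. They also differ in base composition, from 0.565 CpG per 100 bp in *Dcc* to 1.99 in *Unc5a*. The 3′ end of *Unc5a* overlaps the end of *Hk3* on the opposite strand, and peaks carry no strand, so coverage there belongs to both genes.

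Netrin-1 is a secreted, laminin-related protein that guides growing axons and is made by the floor plate at the ventral midline of the hindbrain and spinal cord. DCC and its relative neogenin (*Neo1*) are transmembrane receptors through which netrin-1 attracts axons, and the UNC5 receptors (*Unc5a* to *Unc5d*) mediate repulsion, alone or together with DCC. Outside the nervous system UNC5B is known from endothelial cells, where it takes part in vessel branching. 5fC is made from 5-methylcytosine by the TET dioxygenases in successive oxidations and is excised by the glycosylase TDG, so that it accumulates where TDG is absent.

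The sequences below come from the stretches on which the description turns, read from the forward strand of NCBIM37, 5′ to 3′, with each CpG in capitals, since CpG is where 5fC is mainly formed. The first 3 are central parts of the stretch that lay under peaks of the largest number of the 19 libraries, in *Ntn1* (chr11:68029651-68029950, 14 libraries, 11 CpG), *Neo1* (chr9:58826851-58827150, 10 libraries, 13 CpG) and *Unc5b* (chr10:60270551-60270850, 11 libraries, 12 CpG). The last pair show contrasting tissue patterns. The *Unc5a* sequence (chr13:55069051-55069350, 5 CpG) is the centre of a 1400 bp stretch under peaks of all 4 hindbrain and both carcass *Tdg* null libraries and of no heart or liver library. The second *Unc5b* sequence (chr10:60264651-60264950, 10 CpG) is the centre of a 1200 bp stretch under peaks of both heart *Tdg* null libraries and of no other *Tdg* null library. No WT library had a peak in either of these tissue-specific stretches. All 5 sequences are intronic.
Ntn1 shared stretch: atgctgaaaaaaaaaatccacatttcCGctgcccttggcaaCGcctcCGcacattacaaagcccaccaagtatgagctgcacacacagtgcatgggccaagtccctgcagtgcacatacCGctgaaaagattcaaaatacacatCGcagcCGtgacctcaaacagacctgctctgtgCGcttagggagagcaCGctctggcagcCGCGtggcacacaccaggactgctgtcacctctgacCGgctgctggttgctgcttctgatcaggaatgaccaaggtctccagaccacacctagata
Neo1 shared stretch: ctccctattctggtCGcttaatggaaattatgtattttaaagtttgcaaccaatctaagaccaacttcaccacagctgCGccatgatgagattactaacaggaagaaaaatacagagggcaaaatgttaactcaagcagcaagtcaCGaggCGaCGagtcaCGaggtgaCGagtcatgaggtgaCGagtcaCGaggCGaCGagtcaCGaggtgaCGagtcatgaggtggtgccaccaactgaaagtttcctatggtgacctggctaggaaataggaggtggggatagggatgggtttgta
Unc5b shared stretch: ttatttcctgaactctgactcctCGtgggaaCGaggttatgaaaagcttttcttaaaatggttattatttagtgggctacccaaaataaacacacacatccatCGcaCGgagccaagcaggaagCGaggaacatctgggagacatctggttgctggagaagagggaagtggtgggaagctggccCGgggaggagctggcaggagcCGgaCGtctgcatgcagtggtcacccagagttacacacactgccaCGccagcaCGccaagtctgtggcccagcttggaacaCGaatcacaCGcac
Unc5a hindbrain and carcass stretch: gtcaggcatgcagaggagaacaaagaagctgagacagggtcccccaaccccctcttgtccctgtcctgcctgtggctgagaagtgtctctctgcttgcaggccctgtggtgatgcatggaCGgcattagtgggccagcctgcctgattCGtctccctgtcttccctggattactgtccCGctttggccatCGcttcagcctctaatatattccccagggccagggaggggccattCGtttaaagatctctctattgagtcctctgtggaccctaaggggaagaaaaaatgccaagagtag
Unc5b heart stretch: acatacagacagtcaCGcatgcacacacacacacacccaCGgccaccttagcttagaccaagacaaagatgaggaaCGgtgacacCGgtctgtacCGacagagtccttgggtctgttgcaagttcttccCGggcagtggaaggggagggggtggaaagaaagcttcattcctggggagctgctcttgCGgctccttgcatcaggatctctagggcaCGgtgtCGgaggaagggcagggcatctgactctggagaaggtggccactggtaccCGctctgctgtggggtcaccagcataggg

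**Figure D1:**
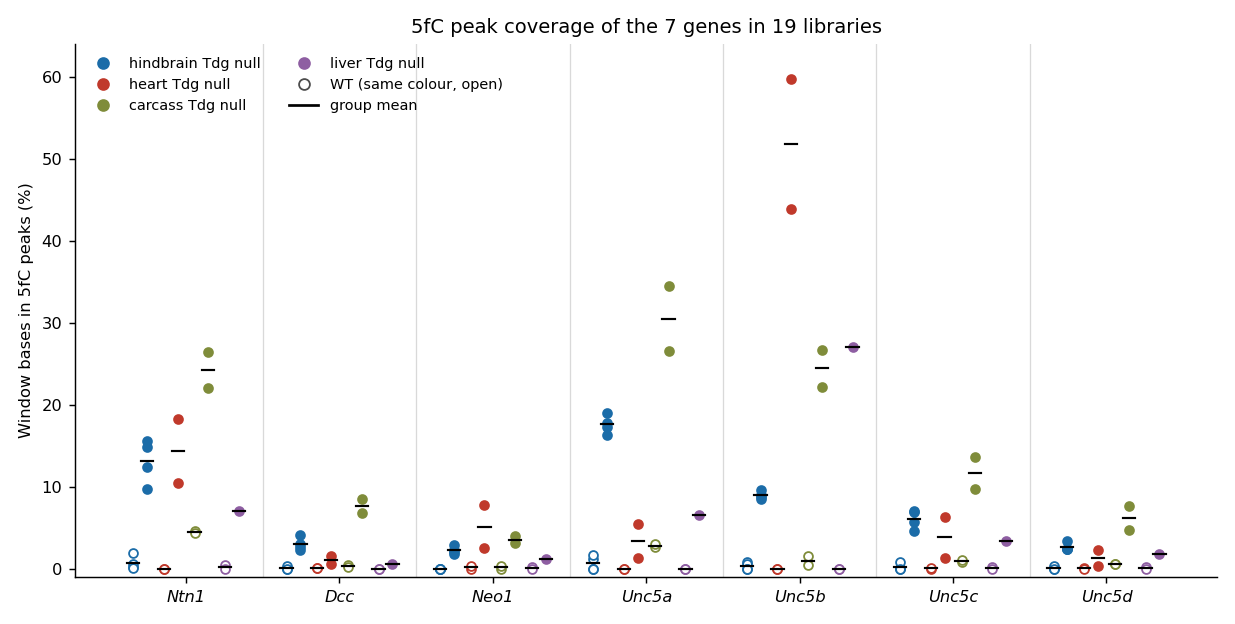
Covered percent of the 7 gene windows (vertical axis) in 10 WT libraries (open points) and 9 *Tdg* null libraries (filled points), coloured by tissue, with group means as black bars. *Unc5b* in heart reached 59.7% and 43.9%, above every other value, and the WT points lie at or below 4.55%.

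The first question was whether the genes carried more 5fC where TDG was absent. All 7 did in hindbrain, in the sense that the 4 *Tdg* null libraries lay above the 4 WT libraries at each gene. The same rule held for 48.8% of all protein-coding genes and for 86.6% of the 5193 genes whose window is at least 50 kb, as it is for each of these 7. The count of 7 of 7 is therefore close to what windows of this size showed in general.

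*Ntn1*, the ligand, had 15.6%, 9.67%, 14.9% and 12.4% of its window under peaks in the *Tdg* null hindbrains of litters A, O, Q and Z. In the WT hindbrains of the same litters it had 0.256%, 0.614%, 1.94% and 0.102%. Each of the 4 *Tdg* null values was above all WT values, and the mean difference was 12.4 percentage points. *Ntn1* was the only one of the 7 with a peak in every WT hindbrain. It was also the most covered of the 7 in WT carcass, with 12 peaks in each library, 4.55% of the window in pair a and 4.30% in pair b.

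*Dcc*, the receptor of attraction and the longest of the genes, had 2.26%, 2.69%, 2.97% and 4.12% in the *Tdg* null hindbrains and 0%, 0.0547%, 0.274% and 0% in the WT hindbrains. *Neo1*, which also binds the repulsive guidance molecules, had 2.02%, 1.84%, 2.29% and 2.86% in the *Tdg* null hindbrains and no peak in any of the 4 WT hindbrains. These were low values, spread over 47 to 79 peaks in *Dcc* and 7 to 9 in *Neo1*.

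*Unc5a* was the most covered of the 7 in *Tdg* null hindbrain, with 17.8%, 16.3%, 19% and 17.3%, against 0%, 1.15%, 1.65% and 0% in WT. *Unc5b* had 8.50%, 8.95%, 8.77% and 9.65%, against 0.822%, 0.548%, 0% and 0% in WT. *Unc5c* had 5.68%, 4.58%, 6.86% and 7.10%, against 0%, 0.107%, 0.830% and 0%. *Unc5d* had 2.46%, 2.45%, 2.46% and 3.35%, against 0%, 0.0347%, 0.277% and 0%. The 4 receptors of repulsion thus ran in the order *Unc5a*, *Unc5b*, *Unc5c*, *Unc5d*, and none of their ranges in *Tdg* null hindbrain overlapped.

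Tested gene by gene, each of the 7 differences had a two-sided exact permutation p of 0.0286, the smallest that 4 against 4 libraries allow, and a Benjamini-Hochberg adjusted p of 0.0585 over 22367 genes. No gene passed an adjusted threshold of 0.05 with these windows. With the litter as a block, the *Tdg* null library was higher in 4 of 4 litters at each gene, and the exact sign-flip p was 0.125, the smallest that 4 pairs allow. Over all 6 pairs of embryos, with the tissues of a pair averaged, the *Tdg* null embryo was higher in 6 of 6 pairs for all 7 genes (exact sign-flip p = 0.0312, adjusted p = 0.0646, counting pair a and pair b as separate), as it was for 48.4% of all genes and 87.2% of those with a window of at least 50 kb. The mean differences ran from 2.64 percentage points at *Neo1* to 17.6 at *Unc5b*.

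*Tdg* null libraries had more peaks everywhere, so the genes were also compared on a scale that allows for this. Log2 enrichment is the log2 of covered over expected bases, each with 500 bp added, where the expectation is the window size times the covered share of the whole genome in that library. On that scale the 4 *Tdg* null hindbrains lay above the 4 WT hindbrains at *Ntn1*, *Dcc*, *Unc5a* and *Unc5b* (exact permutation p = 0.0286 each) and overlapped them at *Unc5c* (p = 0.0571), *Unc5d* (p = 0.143) and *Neo1* (p = 0.886). The background of this rule was 21.9% of all genes and 26.9% of those with a window of at least 50 kb. Many WT hindbrain windows held fewer covered bases than the 500 bp added, so this scale is coarse for WT.

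Heart, carcass and liver were not tested for genotype one by one, and an exact permutation test of 2 against 2 libraries could give no p below 0.333. Both *Tdg* null libraries lay above both WT libraries at all 7 genes in heart and in carcass, and the single *Tdg* null liver lay above both WT livers. The same held for 58.2% of all genes in heart, 54.3% in carcass and 49.2% in liver, and for 90%, 89.6% and 84.8% of those with a window of at least 50 kb, so these counts too are close to what such windows showed in general. In carcass, both WT libraries had a peak at 6 of the 7 genes (*Neo1* had none in pair a). There the *Tdg* null mean was 5.47 times the WT mean at *Ntn1*, 27.3 times at *Dcc*, 10.9 times at *Unc5a* and 25.5 times at *Unc5b*. It was 12.2 times the WT mean at *Unc5c* and 11.0 times at *Unc5d*. The covered share of the whole genome was itself 7.43 times as high in *Tdg* null as in WT carcass, a larger factor than that at *Ntn1*. In log2 enrichment *Ntn1* had 2.01 and 2.11 in WT carcass and 1.98 and 1.77 in *Tdg* null carcass, so on that scale both *Tdg* null libraries lay below both WT libraries. In WT heart, *Ntn1*, *Unc5a* and *Unc5b* had no peak in either library. Peaks of WT libraries in the 7 windows mostly lay where *Tdg* null libraries of the same tissue had them. Of the WT peaks, 40 of 41 in hindbrain, 69 of 78 in carcass, 4 of 7 in heart and 2 of 9 in liver overlapped such a peak, against 88.0%, 76.8%, 56.7% and 31.0% of all WT peaks of these tissues.

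The second question was where the genes differed between tissues. This was tested in the *Tdg* null libraries on the log2 enrichment scale, in 1 limma fit over 15482 genes whose window had enough expected bases, and all 7 genes passed that filter, which does not use the observed coverage. Liver had 1 usable library and was not tested. In bulk tissue, a mark in fewer cells and a lower level per cell cannot be told apart. Heart differed from both other tissues at 5 genes. The share of all genes that differ in both comparisons is not given here, so this count has no background. *Unc5b* was higher in heart than in hindbrain and carcass, while *Unc5a*, *Dcc*, *Unc5d* and *Unc5c* were lower in heart than in both. The liver library, which was not tested, lay between the 2 heart libraries at *Unc5b* and *Dcc*, so these patterns are not particular to heart.

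Against heart, hindbrain was higher at 4 of the 7 genes (background 12.2% of genes) and lower at 1 (background 21.2%). The background shares in this paragraph are over all genes tested. They were not taken for windows of at least 50 kb, as each of these 7 genes has, so window size is not matched. Between hindbrain and carcass none of the 7 passed, where 7.21% of genes were higher and 1.41% lower in hindbrain. At an unadjusted p under 0.05 in limma 1 of the 7 would pass there, *Unc5b* (p = 0.0402, lower in hindbrain, as were 6.23% of all genes at that threshold), and the gene-by-gene exact permutation test called none, as it could not. Against carcass, heart was higher at 1 (background 26.2%) and lower at 4 (background 8.07%). Some of these shares over all genes moved by over 1.5 times when 1 library was left out, and others by less. Without the heart of pair b, 2510 genes were higher and 2042 lower in hindbrain than in heart, against 1886 and 3287, while the counts among the 7 stayed at 4 and 1. Without the carcass of pair a, 2576 genes were higher and 663 lower in heart than in carcass, against 4051 and 1250. These counts were 2705 and 697 without the carcass of pair b, and 2645 and 840 without the heart of pair b. For hindbrain against carcass the libraries that moved the total this far were the hindbrains of litters O and Q and both carcasses. The first and the last comparison share the heart libraries and so are not independent. The median log2 difference of the 7 genes was 1.66 for hindbrain minus heart and -1.68 for heart minus carcass, beside medians of -0.08 and 0.31 over all genes tested. For hindbrain minus carcass it was -0.02, beside 0.32.

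**Figure D2:**
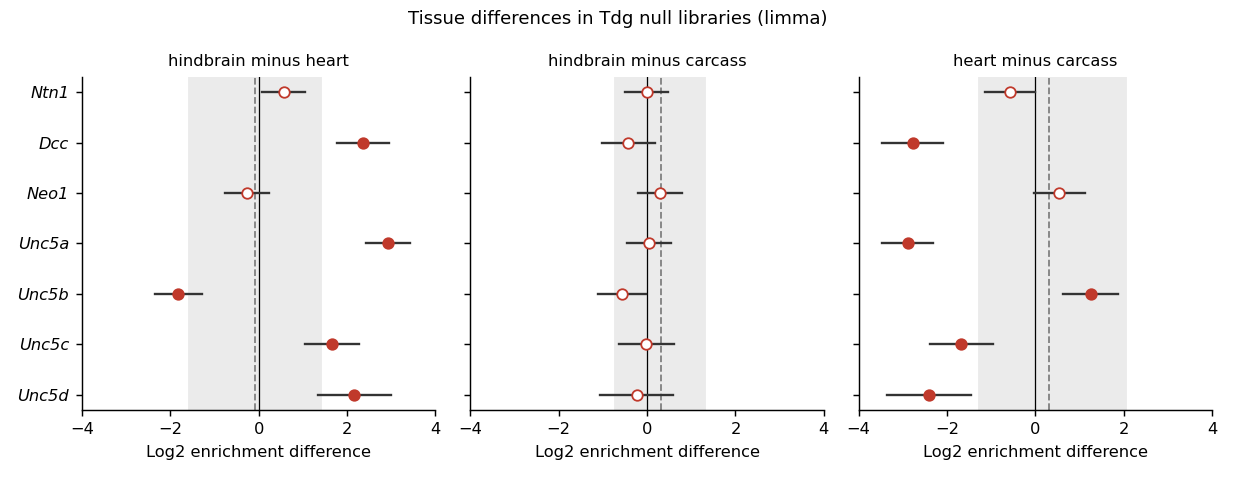
Log2 enrichment differences of the 7 genes between tissues of *Tdg* null embryos (horizontal axis), with 95% confidence intervals as lines, and filled points where the adjusted p of limma was under 0.05. The grey band holds the central 90% of all 15482 genes and the dashed line is their median. *Unc5a*, *Dcc*, *Unc5d* and *Unc5c* lie above the band in hindbrain minus heart and below it in heart minus carcass, and *Unc5b* lies below the band in hindbrain minus heart.

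*Unc5b* is the receptor of this family known from vessels. In *Tdg* null heart 59.7% of its window lay under peaks in pair a and 43.9% in pair b. In carcass it had 22.2% and 26.7%, and in the liver of pair a 27%. Both heart values were above all other libraries. The hindbrain values, given above, were the lowest, and no library of hindbrain overlapped those of any other tissue.

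In log2 enrichment *Unc5b* had 2.78 and 3.36 in heart, 2.90 in liver, 1.91 and 1.73 in carcass, and 1.10, 1.52, 1.17 and 1.25 in the hindbrains of litters A, O, Q and Z. Hindbrain minus heart was -1.81 (SE 0.24, 95% CI -2.35 to -1.28, adjusted p = 0.000982, limma), a 3.52-fold lower level. Heart minus carcass was 1.25 (SE 0.28, adjusted p = 0.00787). Hindbrain minus carcass was -0.56 (95% CI -1.10 to -0.03, adjusted p = 0.127), although all 4 hindbrain values lay below both carcass values. Among gene windows of at least 20 kb, the covered percent of *Unc5b* stood at percentiles 99.6 and 99.8 in the heart libraries and at 82.1 to 92.7 in the hindbrain libraries.

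The heart coverage of *Unc5b* was higher in the gene than around it. The 50 kb beyond the window held 8.3% upstream and 10.5% downstream in heart, against 51.8% in the window. Within the window, 26 stretches with 7500 bp in all, 10.3% of the window, lay under peaks of both heart libraries and of no other *Tdg* null library. A further 14 stretches with 10900 bp, 14.9% of the window, lay under peaks of both heart libraries and the liver but of no hindbrain library. No stretch was found in all 4 hindbrain libraries alone. That rule asks for 4 libraries where the heart rule asks for 2, so these counts cannot be compared directly. The single longest peak in the window was 4500 bp, in the heart of pair a.

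*Unc5a* was lowest in heart. Its covered percent was 5.44% and 1.32% in *Tdg* null heart, 26.5% and 34.4% in carcass and 6.60% in liver, beside 16.3% to 19% in hindbrain. On the log2 enrichment scale it had 2.08, 2.29, 2.19 and 2.01 in hindbrain, 2.14 and 2.07 in carcass, 0.95 in liver, and -0.51 and -1.06 in heart. Heart was below every other library and under the genome-wide expectation. Hindbrain minus heart was 2.93 (SE 0.22, 95% CI 2.43 to 3.43, adjusted p = 0.000204, limma), a 7.60-fold higher level and at percentile 99.8 of all genes tested. Heart minus carcass was -2.89 (SE 0.26, adjusted p = 0.000255). Hindbrain minus carcass was 0.04 (95% CI -0.46 to 0.54, adjusted p = 0.923, limma). This interval holds for the log2 enrichment scale and for these embryos, since tissue and litter cannot be told apart here. In covered percent every hindbrain value lay below both carcass values.

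In *Unc5a*, 4 stretches with 3700 bp in all lay under peaks of all 4 hindbrain and both carcass libraries and of no heart or liver library, and the longest of them is the one printed above. The stretch shared by most libraries, 200 bp at chr13:55107201-55107400, lay at the 3′ end, where *Hk3* overlaps, under peaks of 4 WT and 7 *Tdg* null libraries. The untranslated exons of *Unc5a* were covered to 80.3% in hindbrain and in carcass and to 0% in both heart libraries. In heart all covered bases of *Unc5a* were intronic.

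**Figure D3:**
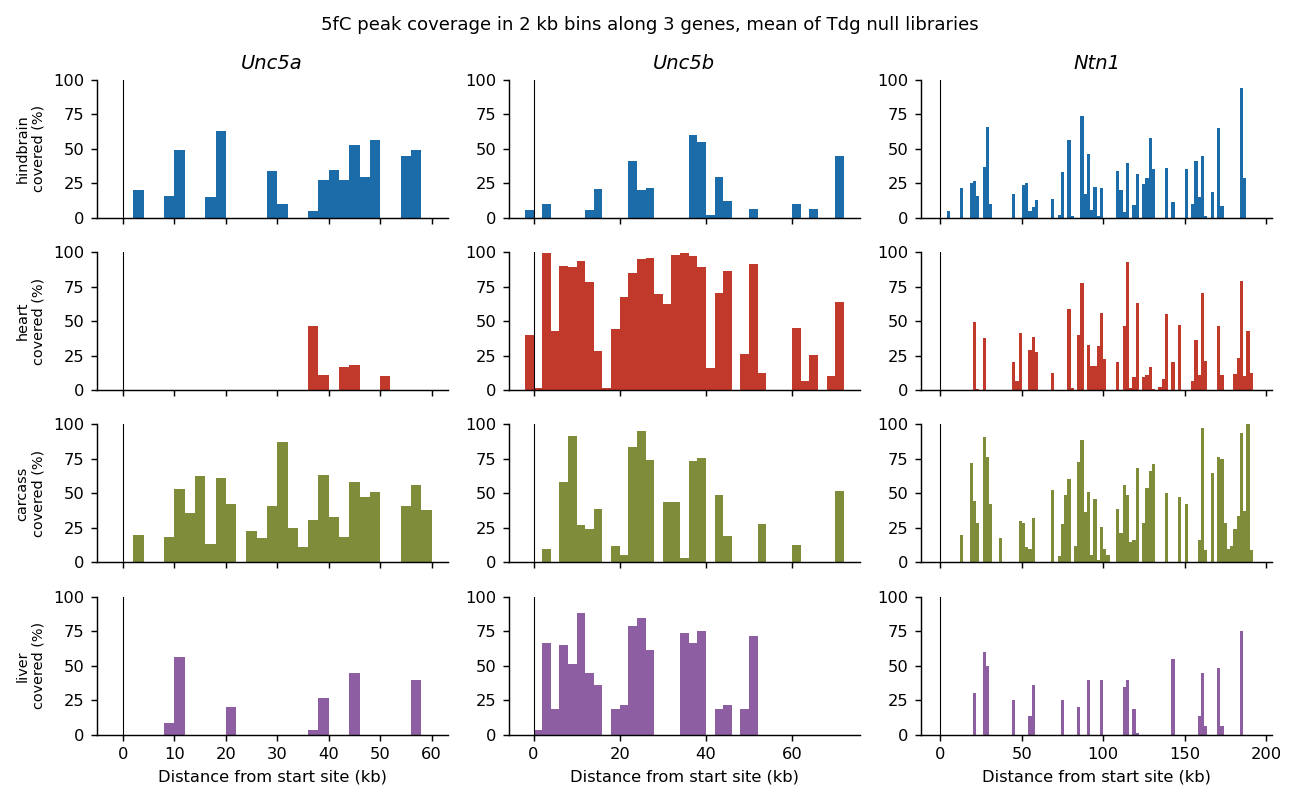
Covered percent in bins of 2 kb (vertical axes) by distance from the start site (horizontal axes, kb, the gene running to the right) for *Unc5a*, *Unc5b* and *Ntn1*, as the mean over the *Tdg* null libraries of each tissue. Heart peaks fill most of the start-side portion of *Unc5b* and are few in *Unc5a*, while *Ntn1* shows peaks in all 4 tissues.

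*Dcc* had 1.53% and 0.520% of its window under peaks in *Tdg* null heart, 6.74% and 8.46% in carcass and 0.520% in liver. On the log2 enrichment scale the hindbrains had -0.66, 0.01, -0.24 and 0.17, the carcasses 0.32 and 0.16, the hearts -2.37 and -2.70, and the liver -2.44. Hindbrain and carcass were thus near the genome-wide expectation and heart and liver far under it. Hindbrain minus heart was 2.35 (SE 0.26, 95% CI 1.76 to 2.95, adjusted p = 0.000592, limma), and heart minus carcass was -2.78 (SE 0.31, adjusted p = 0.000491). Hindbrain minus carcass was -0.42 (95% CI -1.02 to 0.17, adjusted p = 0.267). In *Dcc*, 23 stretches with 10700 bp lay under peaks of all hindbrain and carcass libraries and of no heart or liver library, and 69 stretches with 26500 bp were found in both carcass libraries alone.

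*Unc5c*, known for its part in cerebellar development, had 6.29% and 1.36% in *Tdg* null heart, 9.70% and 13.6% in carcass and 3.4% in liver. In covered percent the heart of pair a thus lay within the range of the *Tdg* null hindbrains, 4.58% to 7.10%. On the log2 enrichment scale heart had -0.36 and -1.33, below the hindbrains (0.64, 0.75, 0.94 and 0.93), the carcasses (0.83 and 0.84) and the liver (0.16). Hindbrain minus heart was 1.66 (SE 0.28, 95% CI 1.04 to 2.28, adjusted p = 0.00247, limma), and heart minus carcass was -1.68 (SE 0.32, adjusted p = 0.0041).

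*Unc5d*, which also binds FLRT proteins, had 2.34% and 0.312% in *Tdg* null heart, 4.72% and 7.67% in carcass and 1.75% in liver. In log2 enrichment the hearts had -1.75 and -3.22, the hindbrains -0.53, -0.13, -0.50 and -0.13, the carcasses -0.19 and 0.02, and the liver -0.76. The heart libraries were the lowest but differed widely from each other. Hindbrain minus heart was 2.17 (SE 0.36, 95% CI 1.35 to 2.98, adjusted p = 0.00255, limma), and heart minus carcass was -2.40 (SE 0.42, adjusted p = 0.00284).

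*Ntn1* was covered in every *Tdg* null library, with 18.2% and 10.5% in heart, 22.1% and 26.4% in carcass and 7.01% in liver. On the log2 enrichment scale it had 2.04, 1.76, 2.00 and 1.69 in hindbrain, 1.98 and 1.77 in carcass, 1.15 and 1.46 in heart and 1.14 in liver. All hindbrain and carcass values were above all heart and liver values. The difference of hindbrain minus heart was 0.57 (SE 0.22, 95% CI 0.08 to 1.06, adjusted p = 0.0702, limma) and did not pass. It passed with an expectation matched on GC content (0.65, adjusted p = 0.0345), with an expectation from gene windows alone (0.81, adjusted p = 0.0194) and with 2000 bp added (0.49, adjusted p = 0.0214). Heart minus carcass was -0.57 (95% CI -1.13 to -0.01, adjusted p = 0.104, limma). This difference did not pass either, but it did under 3 of 14 alternative settings. *Ntn1* had 4 stretches with 3400 bp in all under peaks of all 9 *Tdg* null libraries, more bases than any other of the 7. As a share of the window this was 1.74%, less than the 3.01% (2200 bp) of *Unc5b*.

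*Neo1* had 7.72% and 2.53% in *Tdg* null heart, 3.11% and 3.95% in carcass and 1.15% in liver. On the log2 enrichment scale it had -0.75, -0.48, -0.56 and -0.33 in hindbrain, -0.07 and -0.48 in heart, -0.74 and -0.89 in carcass, and -1.20 in liver, so that every library lay under the genome-wide expectation. Hindbrain minus heart was -0.26 (95% CI -0.75 to 0.24, adjusted p = 0.365, limma) and heart minus carcass 0.54 (adjusted p = 0.128). With peaks of at least 600 bp alone these became -0.98 (adjusted p = 0.0491) and 1.39 (adjusted p = 0.0223). In all, heart minus carcass passed under 3 of 14 alternative settings and hindbrain minus heart under 1 of 16. The surroundings of *Neo1* held more than the gene, with 17.7% of the 50 kb upstream and 27.7% of the 50 kb downstream under peaks in heart, against 5.13% of the window.

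By level in *Tdg* null tissue the order on the log2 enrichment scale was carcass, hindbrain, liver, heart for *Unc5c* and *Unc5d*, and hindbrain, carcass, liver, heart for *Unc5a*. It was carcass, hindbrain, liver, heart for *Dcc* and carcass, hindbrain, heart, liver for *Ntn1*. It was heart, liver, carcass, hindbrain for *Unc5b* and heart, hindbrain, carcass, liver for *Neo1*. Between hindbrain and carcass no difference passed the adjusted threshold in limma, although the interval at *Unc5b* did not include 0. The order of hindbrain and carcass turned under 7 of 16 alternative settings at *Ntn1*, 3 at *Unc5a* and 5 at *Unc5c*, so it is not settled there. Liver, with 1 library, was not placed by a test. Over the 9 *Tdg* null libraries, which share embryos and tissues, the log2 enrichment of *Unc5d* ran with that of *Unc5c* (Pearson r = 0.976), that of *Unc5c* with *Unc5a* (r = 0.967), and that of *Unc5b* against *Unc5a* (r = -0.891). *Neo1* followed none of the others closely, with r from -0.336 to -0.015.

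Where the bases under peaks lay within the genes was described next. Start sites were mostly free of peaks. Within 1 kb of the start site, no library had a covered base except the heart of pair a at *Unc5b* (300 bp) and the carcass of pair b at *Unc5c* (228 bp), both *Tdg* null. Most covered bases were intronic, as most of the windows are. Coding exons and introns differed in both directions. In *Dcc* coding exons were covered to 11.0% in hindbrain, 30.0% in carcass and 17.3% in heart, against 3%, 7.55% and 0.963% of introns. In *Unc5d* they were covered to 13%, 28.6% and 19.6%, against 2.67%, 6.16% and 1.22% of introns. *Neo1* also had more in coding exons in hindbrain (7.81% against 1.98%). The order was the opposite in *Ntn1*, with 1.49% of coding exons against 13.9% of introns in hindbrain, and in *Unc5b*, with 15.1% against 56.6% in heart. These are means over the *Tdg* null libraries of each tissue, and they were not tested.

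CpG islands (CGIs) were found in the genome sequence by 3 criteria, a length of 200 bp or more, 50% GC or more, and a ratio of observed to expected CpG above 0.6. *Neo1* had 1 CGI, at its start site, with no covered base in any *Tdg* null library. The 2 kb shores of that CGI were covered to 43.0% in carcass, 19.8% in hindbrain, 12.4% in heart and 0% in liver, against 2.83%, 1.95%, 5.05% and 1.18% of the rest of the window. In *Ntn1*, which had 7 CGIs, shores were covered to 20.5% in hindbrain, against 8.84% of CGIs and 12.1% of the rest, while in heart the rest (14.7%) exceeded the shores (13%). In *Unc5b* in heart, shores were covered to 50.6%, the rest to 54.4% and CGIs to 14.2%. *Unc5a* had its highest coverage away from CGIs and shores, at 18.9% in hindbrain and 35.1% in carcass, but in heart its shores (5.63%) exceeded the rest (2.88%) and in liver they were close (6.66% and 6.61%). Shores were not the most covered class in every gene.

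**Figure D4:**
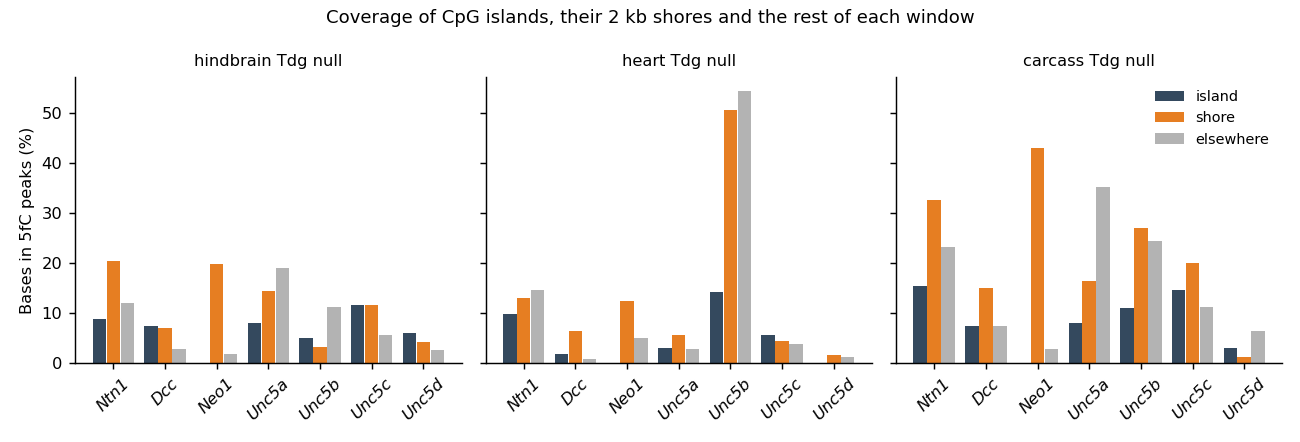
Mean share of bases under peaks (vertical axis) in CGIs, their 2 kb shores and the rest of each window, for the 7 genes in *Tdg* null hindbrain, heart and carcass. The CGI of *Neo1* has no covered base and its shores reach 43.0% in carcass, while in heart *Unc5b* is covered to 50.6% in shores and 54.4% elsewhere.

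Bases under peaks held more CpG than the rest in the CpG-poor genes. In the stretches under peaks of at least 2 hindbrain *Tdg* null libraries, *Dcc* had 1.19 CpG per 100 bp against 0.544 outside them, *Unc5c* 1.12 against 0.561, *Unc5d* 1.39 against 0.695 and *Neo1* 1.43 against 0.761. In the CpG-rich genes the densities were closer, with 2.24 against 1.93 in *Unc5a* and 2.05 against 1.86 in *Unc5b*. In heart, *Unc5b* had 1.94 in shared peaks and 1.83 outside them, while *Unc5a* had 1.0 in its 800 bp of shared peaks and 2.01 outside. The printed *Unc5b* shared stretch, with 12 CpG in 300 bases, is denser than its window, which has 1.88 CpG per 100 bp. Among the printed stretches that of *Unc5a* alone, with 5 CpG in 300 bases, is less dense than its window, which has 1.99.

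The other genes of the pathway were taken from a list of 35, of which all were found in the annotation and 33 entered the tissue fit. In hindbrain 32 of 35 had all *Tdg* null libraries above all WT libraries, beside 48.8% of all genes and 86.6% of those with a window of at least 50 kb. Against heart, hindbrain was higher at 5 and lower at 10 of the 33, beside 12.2% and 21.2% of all genes tested. The share of higher calls among all calls, 36.5%, became 55.2% with an expectation from gene windows alone and 55.1% without the heart of pair b. The largest differences among those higher were *Ntng1*, a membrane-bound netrin relative, at 1.59 (adjusted p = 0.000736) and *Dscaml1*, of the DSCAM family, at 1.49 (adjusted p = 0.00212). Those lower were all among the 17 cytoplasmic partners, led by *Pitpna*, a phosphatidylinositol transfer protein, at -2.47 (adjusted p = 0.00201) and *Rac1*, a small GTPase, at -1.53 (adjusted p = 0.00243). None of the 17 was higher in hindbrain.

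Between hindbrain and carcass, 3 of the 33 passed and all were lower in hindbrain, beside 1.41% lower and 7.21% higher over all genes. Among them were *Flrt1*, a ligand of UNC5 receptors, at -1.0 (adjusted p = 0.0449) and *Rgma*, a ligand of neogenin, at -0.88 (adjusted p = 0.0333). Heart was higher than carcass at 5 and lower at 6, beside 26.2% and 8.07% of all genes tested. *Pitpna* (3.83, adjusted p = 0.000606) and the small GTPase *Cdc42* (1.99, adjusted p = 0.0056) had the largest differences above carcass, and *Rgma* (-2.12, adjusted p = 0.000523) and *Ntng1* (-1.62, adjusted p = 0.00103) the largest below it. In carcass *Pitpna* had no covered base and *Cdc42* had 0.714% of its window covered, so the sizes of both differences depend on the 500 bp added. The median difference of the list was -0.20 for hindbrain minus heart and -0.09 for heart minus carcass, beside -0.08 and 0.31 over all genes tested.

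The labelled tissues were checked against lists of marker genes. Of the 8 heart genes 6 could be tested, and all 6 were higher in heart than in hindbrain and carcass. The median log2 enrichment of the 8 was 2.48 in heart, 1.32 in liver, 0.14 in hindbrain and -0.40 in carcass. Of the 8 hindbrain genes 5 could be tested, and against heart 2 were higher in hindbrain (*Pax6* and *Elavl3*) and 1 lower (*Nes*). Against carcass none of these 5 was higher in hindbrain and *Nes* was again lower, so the hindbrain list did not separate hindbrain from carcass. *Sox2* and *Pou3f2* had no covered base in any *Tdg* null library used. Of the 5 mesenchymal genes tested, 2 were higher in hindbrain than in heart and 2 lower in heart than in carcass, and none passed between hindbrain and carcass. Of the 4 liver genes tested, 1 was lower in hindbrain than in heart, 1 was higher in hindbrain than in carcass and 1 was higher in heart than in carcass. *Gata1*, the only erythroid gene tested, was higher in heart than in hindbrain and carcass. Of the 4 endothelial genes, 1 was lower in hindbrain than in heart and 3 were higher in heart than in carcass, with a median log2 enrichment of 1.49 in heart, 1.64 in liver, 0.84 in hindbrain and 0.39 in carcass. The endothelial median was higher in heart than in hindbrain and carcass, as *Unc5b* was, but it was lower in carcass than in hindbrain, unlike *Unc5b*. Its part in the *Unc5b* differences was not tested.

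For each gene the 2 genes with the most similar log2 enrichment over the 9 *Tdg* null libraries were sought among 10962 genes with a window of at least 20 kb. They were *Dcbld2* (r = 0.996) and *Gm889* (r = 0.995) for *Unc5b*, *4921528I01Rik* (r = 0.995) and *Lmo1* (r = 0.994) for *Unc5a*, and *Anks1b* (r = 0.997) and *Crtac1* (r = 0.994) for *Dcc*. For *Unc5c* they were *5730522E02Rik* and *Astn1* (r = 0.993 for both), for *Unc5d* *Plcxd3* (r = 0.987) and *St8sia6* (r = 0.986), for *Ntn1* *Nol9* (r = 0.972) and *Cyld* (r = 0.963), and for *Neo1* *Ibtk* (r = 0.98) and *Arhgef19* (r = 0.979). High values are bound to occur when the best of many genes are taken over 9 libraries.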

How the data were processed

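The authors trimmed reads with Trim Galore, aligned them with Bowtie2 to NCBIM37 (mm9) and called peaks with MACS in SeqMonk in each pull-down separately. Of the deposited data, only the peak files were used here. They hold the start and end of each peak on a 100 bp grid, with no height, count or p-value. The study states that raw sequencing files were deposited too, and these were not read. Depth is therefore unknown from the files used, and no counting interval can be given. How input and duplicates were handled is not given in the sources used here.

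Windows were the gene body with 2 kb on each side. Genotype was tested on covered percent with two-sided exact permutation tests, and tissue on log2 enrichment (500 bp added) with limma 3.58.1 in R 4.3.3 over genes with at least 500 expected bp on average, each with Benjamini-Hochberg adjustment over all genes tested and a threshold of 0.05. Scripts were tested on simulated data. The *Tdg* null liver of pair b was left out. The 7 genes, the pathway list and the marker lists were chosen with earlier results of these data known. All 7 genes were named throughout, with the 2 largest differences each way among called pathway genes and the 2 genes most like each. Pairs of WT and *Tdg* null embryos were taken from the labels. In hindbrain, deviations of litter-mates from their group means correlated at 0.0513, 0.0162, -0.00144 and -0.0289 over 10962 genes. Each sample is a separate embryo within its tissue. Alternatives covered the window, peak length, gaps between peaks, peak counts, added bases, expectation, filter, samples in the fit, blocks, left-out libraries and an exact test.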

Additional observations from a re-analysis of the deposited data

Results flagged for a closer look

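In groups of 4 hindbrain libraries, 3 of the 14 combinations of gene and genotype held a library far from the others. For normally distributed values chance gives about 1 in 20, but that rate does not apply to the WT groups below, where 2 of the 4 values are 0. In WT, litter Q stood apart at *Unc5c*, with 0.830% of the window under peaks against 0.107% in the next library, and at *Unc5d*, with 0.277% against 0.0347%. The WT library of litter Q had 21606 peaks in the whole genome, and the other WT hindbrains had 1563 to 8989. In *Tdg* null hindbrain, litter Z stood apart at *Unc5d*, with 3.35% against 2.46% in the next library. The part of library-wide peak number in these values was not tested.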

How the results depend on the processing

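The tissue comparisons rest on 4 hindbrain, 2 heart and 2 carcass libraries. Under the gene-by-gene exact permutation test the calls fell to 0 in all 3 comparisons, for the 7 genes and for all genes, since the smallest p it allows is 0.133 for 4 against 2 and 0.333 for 2 against 2. In hindbrain, 4 in place of 7 genes separated the genotypes on the log2 enrichment scale. With litter as the replicate block all 7 stayed higher in *Tdg* null (exact sign-flip p = 0.125), and with embryo as the replicate block the heart against carcass comparison called 5 of the 7 genes and 5340 genes in all. That block pairs heart with carcass alone, since hindbrain came from other embryos. Between hindbrain and carcass 1336 genes were called in all, against 326 with peaks of at least 600 bp, 2385 with 10 kb on each side, 552 with 100 bp added and 3049 with 2000 bp added. With 2000 bp added 1 of the 7 passed there, *Unc5b* (-0.63, adjusted p = 0.0142). Leaving out 1 library of the tissues compared at a time left the counts among the 7 at 7, 5, 0 and 5 and gave 4178 to 4905 calls for hindbrain against heart (5173 with all), 495 to 1079 for hindbrain against carcass and 3239 to 4752 for heart against carcass (5301 with all). Without either heart library, hindbrain against carcass had 1591 calls, and without the hindbrain of litter A, heart against carcass had 5318. The hindbrain against carcass count was 751 without the hindbrain of litter O, 658 without that of litter Q, 495 without the carcass of pair a and 557 without that of pair b. The heart against carcass count was 3485 without the heart of pair b, 3239 without the carcass of pair a and 3402 without that of pair b. An expectation from gene windows alone moved the median of all genes by 0.22 for hindbrain minus heart and -0.18 for heart minus carcass. It changed the share of higher calls from 36.5% to 55.2% and from 76.4% to 65.5%. For hindbrain minus carcass that share was 83.6%, 71.7% with 2000 bp added and 64.7% with peaks of at least 600 bp. With 10 kb on each side the smallest adjusted p of the genotype tests was 0.0451 in hindbrain and 0.0492 over all pairs, which the 7 genes shared, so that they passed 0.05 there and not with 2 kb (0.0585 and 0.0646). Among values of single genes, apart from the exact permutation test between tissues, where no gene kept its call, 482 kept their direction and their call, where a call is an adjusted p under 0.05 between tissues and all *Tdg* null above all WT values between genotypes. A call was lost by 3 (*Neo1*, *Unc5c* and *Unc5d* between genotypes on the log2 enrichment scale) and gained by 11 (*Ntn1* and *Neo1* against heart, and *Unc5b* between hindbrain and carcass). The other 15 changed sign, all in hindbrain minus carcass at 3 genes whose differences were close to 0 and not called. *Ntn1* (-0.0025 with all settings as reported) became 0.11 with peaks of at least 600 bp, 0.00055 with close peaks merged, 0.026 with 100 bp added and 0.025 with the gene-window expectation. *Unc5a* (0.037) became -0.14 with 2000 bp added and -0.13 with the GC-matched expectation. *Unc5c* (-0.021) became 0.042 with peaks of at least 600 bp, 0.14 with the GC-matched expectation and 0.0016 with the gene-window expectation. With 1 library left out they ran from -0.11 to 0.10 (*Ntn1*), -0.014 to 0.080 (*Unc5a*) and -0.062 to 0.036 (*Unc5c*). The cause of these changes was not tested.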
